A study of Mus musculus with 8 samples.

Results

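The genes described here code for the subunits of 2 classes of ionotropic glutamate receptor, the NMDA receptors (Grin1, Grin2a, Grin2b, Grin2d and Grin3a) and the kainate receptors (Grik1, Grik2, Grik3, Grik4 and Grik5). They were chosen by symbol, as members of these receptor families: 10 genes of the 32726 gene identifiers in the count table, all 10 of which had a gene identifier and enough counts to be tested. Bulk RNA sequencing was carried out on primary cultures of mouse embryonic cortical neurons after 5 days in serum-free culture. Constitutive Nuak1 knockout (KO) and wild-type (WT) embryos on a C57Bl/6JRj background were compared, with 4 libraries per genotype, which the methods give as separate animals. The labels do not name the KO allele. Nuak1 encodes a kinase of the AMPK family. The tissue label reads cortex or hippocampus for every library, so the labels do not separate these regions.

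Lane A held KO1, KO4, WT1 and WT3, and lane B held KO2, KO3, WT2 and WT4, giving 2 libraries per genotype on each. A strain label also differed: BJ was carried by KO1, KO2 and KO3 and by no WT library, BK by KO4, WT2 and WT4, BO by WT1 and BQ by WT3. Strain label and genotype can therefore be separated only in part, within BK. Any fit with strain label as a term compares KO4 with WT2 and WT4 alone. Counts per library ranged from 31247078 to 67155004, with a median of 39224504. Levels are given as CPM, counts per 1000000 counts of the library. Nuak1 stood at 2.37 ± 0.317 CPM (mean ± SD, n = 4) in the KO libraries against 69.5 ± 13.2 in the WT libraries. Its log2 fold change was -4.89 with an SE of 0.13 (edgeR quasi-likelihood test with Benjamini-Hochberg adjustment, adjusted p = 1.24e-07). By that gene the genotype labels held in all 8 libraries. In CPM summed over each list, KO then WT, neuronal markers lay at 5989 to 6739 and 5981 to 6764, astrocyte markers at 767 to 1599 and 827 to 1460, GABAergic markers at 215 to 352 and 194 to 319, oligodendrocyte lineage markers at 508 to 611 and 486 to 592, microglial markers at 2.87 to 36.7 and 3.52 to 15.3, and endothelial and fibroblast markers at 11.3 to 21.3 and 6.36 to 34.3. These ranges overlapped between genotypes for every list, and no listed marker was at 0 in all libraries. Of 6 microglial markers tested, 5 had log2 fold changes above 0 with a median of 1.36 over the 6, and 0 were under an unadjusted p of 0.05. The astrocyte marker Gfap, named after its values were seen, was at 107 ± 95.9 CPM in KO against 28.0 ± 21.7 in WT (log2 fold change 1.94, SE 1.116, edgeR adjusted p = 0.583). Their part in the receptor genes' values was not tested.

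Libraries stood apart within both genotypes before any receptor gene was considered. In 28.8% of the 16272 genes tested both KO1 and WT1 lay below all of the other 6 libraries, and in 20.5% both lay above them. WT3 differed from the other WT libraries for many of the receptor genes, and the genotype difference of each is also given without it. That library was singled out by those same values, so p-values and calls without it are selected and only describe its weight.

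Glutamate opens NMDA and kainate receptors, which are tetramers. An NMDA receptor pairs obligatory GluN1 subunits (Grin1) with GluN2 (Grin2a to Grin2d) or GluN3 (Grin3a, Grin3b) subunits, needs glycine or D-serine as a co-agonist and is blocked by magnesium at rest. In forebrain neurons GluN2B (Grin2b) prevails early and GluN2A (Grin2a) gains ground as synapses mature, so that the ratio of both transcripts is used as a reading of maturity. Kainate receptors are built from GluK1 to GluK3 (Grik1, Grik2, Grik3), which form channels by themselves, and GluK4 and GluK5 (Grik4, Grik5), which bind glutamate with high affinity but need a partner from the first group.

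The classes differ at the tip of the pore loop, where a single residue governs calcium passage and magnesium block. The stretches below show that codon, in capitals, within 27 bases of coding sequence, 5′ to 3′ on the transcript's strand, read from GENCODE M1 transcripts of the NCBIM37 build. They are shown because they separate the NMDA from the kainate subunits in one place. Grin3a did not hold the downstream motif from which the site was located.
Grin1: ggcgtcctgctcAACtctggcattggg
Grin2a: ggcctggtcttcAACaattctgtgccc
Grin2d: gccctggtgttcAACaactccgtgcca
Grik1: ggagctctcatgCAGcaaggatcggag
Grik2: ggagctctcatgCAGcaaggttctgag
Grik3: ggctccctgatgCAGcaaggatctgaa
Grik4: ggaggcttcatgCAGcaaggctccact
Grik5: ggtggcttcatgCAGcagggctcggag

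The 3 NMDA subunits shown carried AAC, an asparagine codon, and all 5 kainate subunits carried CAG, a glutamine codon. Grik1 and Grik2, whose transcripts are known to be edited at this codon by ADAR enzymes so that it reads as arginine, shared 25 of the 27 bases. Grin2a and Grin2d shared 22 of 27, and Grin2a and Grik2 shared 8 of 27. Gene counts do not show whether a transcript was edited. The editing enzymes Adar and Adarb1 had a median log2 fold change of -0.01 and neither passed a test.

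Per kilobase of exon, Grin2b was by far the most abundant of the 10 transcripts. Its level was 182.8 ± 34.4 CPM per kilobase (mean ± SD over the 8 libraries), 4.56-fold that of Grik3, and it stood above Grik3 in 8 of 8 libraries with ranges that did not overlap. Grik3 followed at 40.1 ± 7.44, Grik5 at 29.3 ± 11.1, Grik2 at 25.4 ± 5.90 and the obligatory subunit gene Grin1 at 14.8 ± 3.54 CPM per kilobase. From Grik3 downwards the ranges of neighbours overlapped in every case. Grik3 nevertheless exceeded Grik5 in 7 of 8 libraries, Grik5 exceeded Grik2 in 6 and Grik2 exceeded Grin1 in 7.

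The lower end of the order was held by Grik1 at 10.9 ± 2.56, Grin2a at 6.45 ± 1.86, Grin3a at 4.75 ± 0.806, Grik4 at 2.48 ± 0.523 and Grin2d at 1.52 ± 0.653 CPM per kilobase. Grik1 exceeded Grin2a in 8 of 8 libraries although their ranges overlapped, and Grik4 exceeded Grin2d in 8 of 8. Per kilobase of coding sequence the lead of Grin2b over Grik3 was 2.58-fold. On that scale Grin2b, Grik3, Grik4 and Grin2d kept their places and the other 6 genes traded theirs, Grik2 and Grin1 then standing above Grik5. Exon lengths came from an older annotation than the one used for counting. A gene whose untranslated exons are missing there would appear too high. The lengths join the exons of all annotated transcripts, so a gene with exons that its transcripts rarely carry would appear too low. This length was 9700 bases for Grin1 and 15779 for Grin3a, while their longest coding transcripts had 4276 and 7491 bases.

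**Figure D1:**
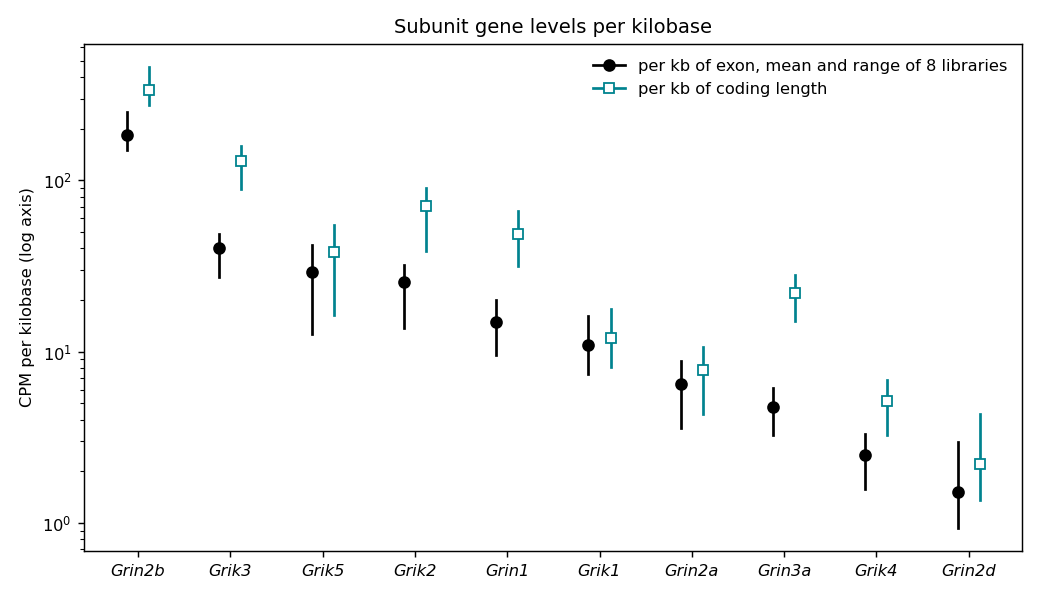
Mean level of each subunit transcript in CPM per kilobase on a log axis, with lines spanning the lowest to the highest of the 8 libraries. Black circles are per kilobase of exon and open squares per kilobase of coding length. Grin2b stands above every other gene on both, while the exon-based ranges of neighbouring genes from Grik3 down to Grin2d overlap.

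Among the GluN2 transcripts Grin2b took 95.3 to 97.8% of the counts of a library, Grin2a 1.52 to 3.35%, Grin2d 0.262 to 1.25% and Grin2c 0.0261 to 0.139%. In KO1, for instance, Grin2a took 3.28% of 49389 GluN2 counts, with a Wilson 95% interval of 3.13 to 3.44% that covers counting error only. Among the kainate transcripts Grik3 took 42.5 to 51.6% of the counts, Grik2 19.7 to 36.7%, Grik5 6.79 to 27.8%, Grik1 3.14 to 8.59% and Grik4 1.28 to 3.40%. These are shares of read counts, not corrected for length. Every library thus held mostly Grin2b of the GluN2 class, whichever its genotype, while Grik3 had the largest share of kainate counts in each library and exceeded 50% in 4 of 8.

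The comparison of KO with WT asked whether loss of Nuak1 altered these transcripts in culture. None of the 10 genes passed the edgeR quasi-likelihood test at a Benjamini-Hochberg adjusted p of 0.05, which 0.0492% of the 16272 tested genes passed, and 1 of the 10, Grin2b, was under an unadjusted p of 0.05, as were 10.6% of tested genes. With DESeq2 and the same surrogate variable 1 of the 10 passed at the adjusted threshold, again Grin2b, beside 1.16% of tested genes. The study set an absolute log2 fold change above 0.25 with p under 0.05. By this rule, with the p taken here as unadjusted, 1 of the 10 was lower in KO, Grin2b, and 0 of the 10 were higher, against 3.53% and 2.22% of all tested genes. Ranges of KO and WT overlapped for all 10 genes, whereas they were apart for 0.86% of tested genes with KO lower and 1.54% with KO higher. All 10 log2 fold changes were below 0, as were 46.2% of those of all genes. The median was -0.13 over the 10 genes, -0.16 over the NMDA subunits and -0.11 over the kainate subunits, beside 0.01 over all genes tested. Without WT3, 8 of the 10 log2 fold changes were below 0, 5 genes (Grin2b, Grin3a, Grik2, Grik3 and Grik5) were under an unadjusted p of 0.05 beside 15.6% of all genes, and 3 (Grin2b, Grik2 and Grik3) met the study's rule beside 7.77%. The genes share libraries, so these counts of direction are not independent of each other. In cultures sequenced in bulk, fewer cells of a type and less RNA per cell cannot be told apart.

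**Figure D2:**
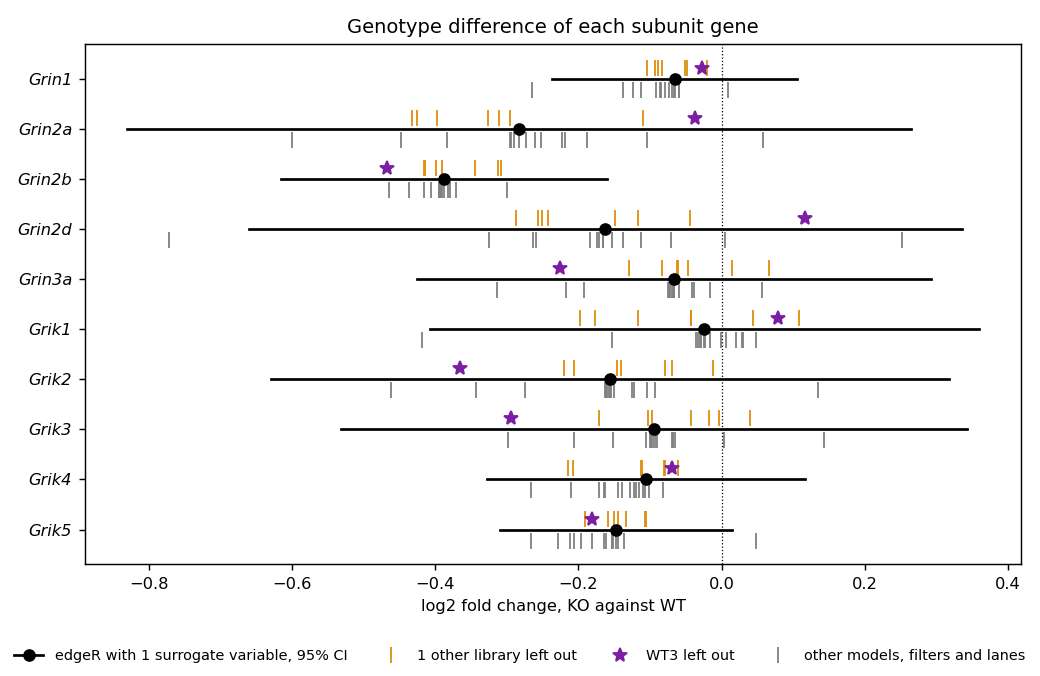
Log2 fold change of KO against WT for each subunit gene (black points, edgeR with 1 surrogate variable) with its 95% confidence interval (black lines). Purple stars leave out WT3, orange ticks leave out 1 other library, and grey ticks are the other models, filters and lanes. Only the interval of Grin2b, -0.62 to -0.16, lies wholly below 0, and it is not adjusted for the number of genes tested.

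Grin2b, the GluN2 subunit of early forebrain synapses (ENSMUSG00000030209, chr6:135713221-136173615, GRCm38), was lower in KO by the study's rule and not by the adjusted edgeR test. Its level was 1366, 1393, 1270.0 and 1224 CPM in KO1 to KO4 and 2039, 1762, 1323 and 1576 CPM in WT1 to WT4. Every KO library lay below WT1, WT2 and WT4, while WT3 fell inside the KO range, between KO3 and KO1. The KO mean was 1313 ± 80.0 CPM, the WT mean 1675 ± 302 CPM (SD, n = 4), and the log2 fold change was -0.39 (SE 0.10, 95% interval -0.62 to -0.16), or -23.6%. The unadjusted p was 0.00359, rank 191 of the 16272 genes, and the adjusted p was 0.306 (edgeR, Benjamini-Hochberg).

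The direction of Grin2b held in all 23 alternative analyses, with log2 fold changes from -0.47 to -0.30, and the study's rule held in 21 of them. It was not met in lane A alone (-0.41, edgeR adjusted p = 1.0) or when KO1 and WT1 were left out together (-0.30, edgeR adjusted p = 0.980). The adjusted p ranged from 0.0128 to 1.0 over these analyses: DESeq2 gave the lowest value, and edgeR without WT3 gave 0.0514 with a log2 fold change of -0.47. Within lane B the log2 fold change was -0.39 (edgeR adjusted p = 0.268), and the genotype effect differed between lanes by 0.01 on the log2 scale (edgeR interaction term, adjusted p = 1.0). With strain label as a term in place of the surrogate variable it was -0.47. BK is the only label found in both genotypes, so this value rests on KO4 against WT2 and WT4.

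Grin1, the obligatory NMDA subunit (ENSMUSG00000026959, chr2:25291177-25319187), was measured at 96.7, 151, 167 and 144 CPM in KO1 to KO4. In WT1 to WT4 it was at 92.7, 159, 195 and 142 CPM. KO1 and WT1 were far below the other 6 libraries, which lay between 142 and 195 CPM, and the genotypes overlapped. From means of 139.6 ± 30.2 CPM (KO) and 147 ± 42.4 CPM (WT), the log2 fold change was -0.07 with a 95% interval of -0.24 to 0.11 (edgeR adjusted p = 0.789), and -0.03 without WT3.

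Grin2a, the GluN2 subunit that gains ground with maturity (ENSMUSG00000059003, chr16:9567901-9996083), was at 46.5, 32.7, 29.7 and 19.1 CPM in KO1 to KO4. The WT values were 41.6, 29.99, 46.6 and 27.1 CPM. KO1 and WT3 were the highest of the 8 and equal to within 0.1 CPM, and KO4 was the lowest. The log2 fold change of -0.28 had an SE of 0.24 and a 95% interval from -0.83 to 0.26 (edgeR adjusted p = 0.702). It rested on single libraries: the log2 fold change was -0.04 without WT3, -0.11 without KO4 and -0.43 without KO1.

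Grin2d, a GluN2 subunit known mainly from interneurons and the early brain (ENSMUSG00000002771, chr7:45831883-45871194), was at 5.92, 8.24, 11.1 and 7.49 CPM in KO1 to KO4. It was at 5.47, 7.43, 17.4 and 8.16 CPM in WT1 to WT4. WT3 was the highest and the remaining WT libraries lay at or below 8.16 CPM. Genotype gave a log2 fold change of -0.16 (SE 0.22, edgeR adjusted p = 0.827), which was 0.12 without WT3.

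Grin3a, a GluN3 subunit that binds glycine and lowers calcium passage (ENSMUSG00000039579, chr4:49661611-49846023), was at 72.0, 73.7, 81.5 and 68.9 CPM in KO1 to KO4. The WT values were 81.3, 74.0, 51.5 and 96.2 CPM. All KO values fell inside the WT range, whose ends were WT3 and WT4. With a log2 fold change of -0.07 (SE 0.16), Grin3a had an edgeR adjusted p = 0.908. Without WT3 its log2 fold change was -0.23 (SE 0.08, edgeR adjusted p = 0.201), and without WT4 it was 0.07. Of the subunits outside the 10 genes, Grin2c was at 0.517 to 1.82 CPM in KO against 0.544 to 1.53 in WT (log2 fold change -0.01, edgeR adjusted p = 0.996), and Grin3b, at no more than 0.211 CPM in any library, had too few counts to be tested.

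**Figure D3:**
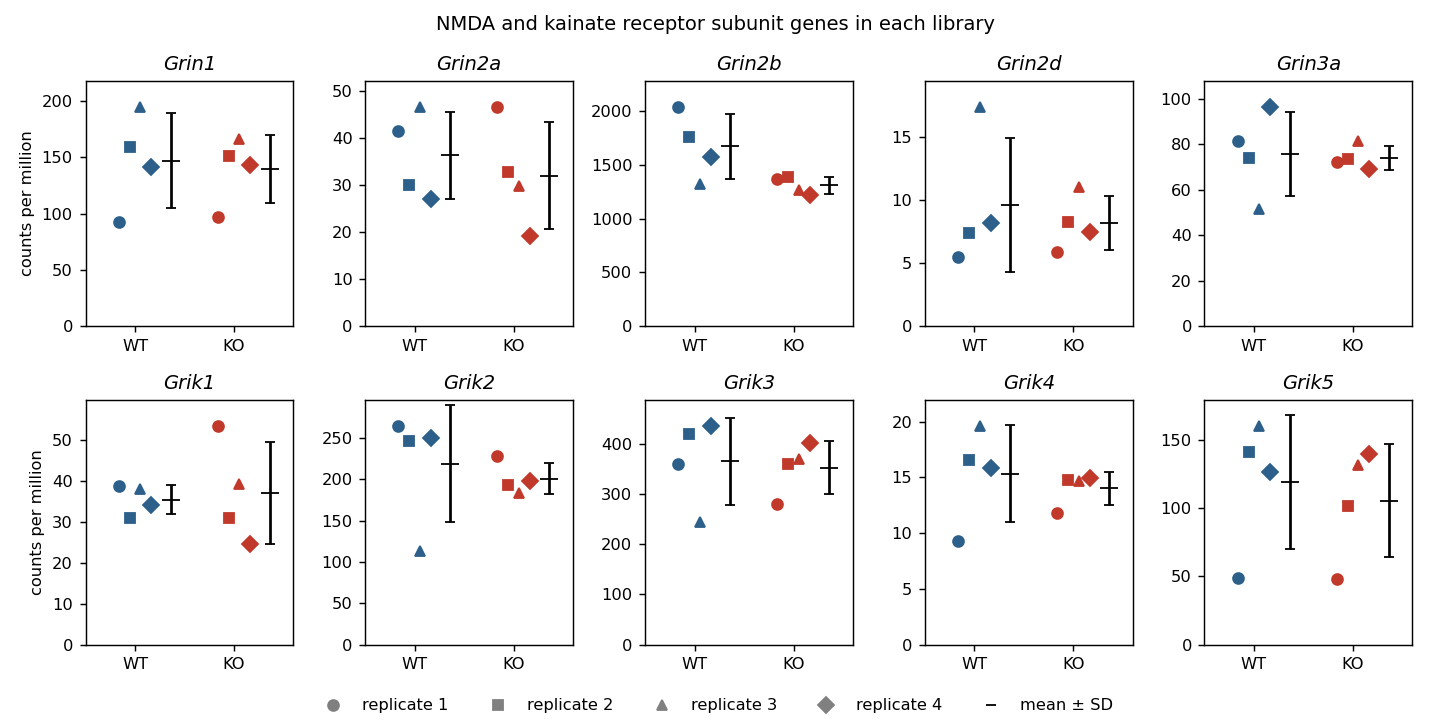
CPM of the 10 subunit genes in each of the 4 WT (blue) and 4 KO (red) libraries, 1 panel per gene with a linear axis from 0. The marker shape gives the replicate number, and the black bars are the mean ± SD of each genotype. WT3 is the highest of the 8 libraries for Grin1, Grin2a, Grin2d, Grik4 and Grik5 and the lowest for Grin3a, Grik2 and Grik3.

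Of the kainate subunits that form channels alone, Grik3 (ENSMUSG00000001985, chr4:125490259-125714173) was at 279.8, 361, 370.1 and 403 CPM in KO1 to KO4. In WT1 to WT4 it was at 361, 422, 246 and 437 CPM. WT3 was the lowest library and WT2 and WT4 the highest. Over all libraries it had a log2 fold change of -0.09 (SE 0.19, edgeR adjusted p = 0.888).

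Grik2, the subunit best known for its editing (ENSMUSG00000056073, chr10:49093680-49790161), was at 228, 194, 184 and 198 CPM in KO1 to KO4. In WT1 to WT4 it was at 265, 247, 114 and 250.0 CPM. The KO values formed a narrow band below WT1, WT2 and WT4, and WT3 lay below them all. From means of 201 ± 19.1 CPM (KO) and 219 ± 70.6 CPM (WT), the log2 fold change was -0.16 (SE 0.21, edgeR adjusted p = 0.824). Grik2 lies on the same chromosome as Nuak1, 34.6 Mb away, and the part of that linkage in its values was not tested.

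Both of these genes turned on single libraries. With 1 library left out the log2 fold change of Grik2 ran from -0.37 (without WT3) to -0.01 (without WT2) and that of Grik3 from -0.29 (without WT3) to 0.04 (without KO1). Without WT3, Grik2 had a log2 fold change of -0.37 (edgeR adjusted p = 0.0461) and Grik3 one of -0.29 (edgeR adjusted p = 0.0746). WT3 was singled out by these genes' own values, so those p-values are selected and do not test the genotype difference. In lane B, where WT3 is also absent, the values were -0.46 (edgeR adjusted p = 0.0323) and -0.30 (edgeR adjusted p = 0.191). The lane B libraries are all among those kept without WT3, so lane B is not a separate check. Of all genes tested, 0.554% passed the adjusted edgeR test without WT3 and 0.588% in lane B, where 9.58% met the study's rule and 3 of the 10 receptor genes did. In lane A the log2 fold changes of Grik2 and Grik3 were 0.13 and 0.14, both with an edgeR adjusted p of 1.0. The adjusted p ranged from 0.0323 to 1.0 for Grik2 and from 0.0746 to 1.0 for Grik3 over the 23 alternatives. The genotype effect in lane B minus that in lane A was -0.60 for Grik2 and -0.44 for Grik3 on the log2 scale (edgeR interaction term, adjusted p = 1.0 for both), so the lanes were not shown to differ.

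Grik1, whose product forms channels in interneurons and sensory neurons (ENSMUSG00000022935, chr16:87895901-88290863), was at 53.4, 30.99, 39.1 and 24.5 CPM in KO1 to KO4. The WT values were 38.7, 30.9, 37.9 and 33.9 CPM. The KO libraries held both the highest and the lowest value, and the WT libraries lay between them. The log2 fold change of -0.02 (SE 0.17, edgeR adjusted p = 0.974) was the nearest to 0 of the 10 genes and was above 0 in 8 of the 23 alternatives, at 0.08 without WT3. Summed markers of GABAergic neurons were at 351.5, 240.8, 325.6 and 215 CPM in KO1 to KO4 and at 269, 194, 319 and 210.3 CPM in WT1 to WT4. KO1 was highest for both Grik1 and these markers and KO4 was the lowest KO library for both, and the part of interneuron content in Grik1 was not tested.

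Of the high-affinity kainate subunits, Grik5 (ENSMUSG00000003378, chr7:25009849-25075694) was at 48.2, 102, 132 and 140.1 CPM in KO1 to KO4. It was at 49.1, 141, 161 and 126 CPM in WT1 to WT4. KO1 and WT1 stood far below every other library, and the highest library exceeded the lowest 3.33-fold, the widest span of the 10 genes. Its log2 fold change was -0.15 with a 95% interval of -0.31 to 0.02 (edgeR adjusted p = 0.507), and without WT3 it was -0.18 (edgeR adjusted p = 0.223).

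Grik4, its close relative (ENSMUSG00000032017, chr9:42518182-42945000), was at 11.8, 14.8, 14.7 and 14.9 CPM in KO1 to KO4. The WT values were 9.28, 16.6, 19.6 and 15.9 CPM. KO2, KO3 and KO4 lay close together, below WT2, WT3 and WT4, while KO1 and WT1 were the lowest of their genotypes. The genotype difference was -0.11 on the log2 scale (SE 0.10, edgeR adjusted p = 0.730) and -0.07 without WT3. Without KO1 and WT1 it was -0.27 and met the study's rule (edgeR adjusted p = 0.980), beside a range of adjusted p from 0.533 to 1.0 over the alternatives.

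The Grin2a to Grin2b ratio was then taken as a reading of the maturity of the cultures. Per 100 Grin2b counts there were 3.40, 2.35, 2.34 and 1.56 Grin2a counts in KO1 to KO4. In WT1 to WT4 there were 2.04, 1.70, 3.52 and 1.72. WT3 and KO1 had the highest ratios and KO4 the lowest, so the genotypes overlapped over nearly the whole range. The mean was 2.41 ± 0.759 in KO and 2.24 ± 0.863 in WT (SD, n = 4), a log2 difference of 0.12 or 1.09-fold (two-sided exact permutation test, p = 0.657, where 0.0286 is the smallest value that 4 against 4 libraries allow). Within lane A the log2 difference was -0.22 and within lane B it was 0.46, each from 2 libraries per genotype. Without WT3 the log2 difference was 0.36.

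The chloride transporters give another developmental reading, since Slc12a5 (KCC2, which extrudes chloride) gains on Slc12a2 (NKCC1, which loads it) as neurons mature. The ratio of Slc12a5 to Slc12a2 counts was 0.860, 1.84, 2.41 and 2.32 in KO1 to KO4 and 0.897, 2.02, 1.82 and 1.82 in WT1 to WT4. KO1 and WT1 had the lowest ratios, below 1, and the other 6 libraries lay between 1.82 and 2.41. The mean was 1.86 ± 0.710 in KO and 1.64 ± 0.503 in WT, a log2 difference of 0.14 (two-sided exact permutation test, p = 0.6). The 2 readings did not order the libraries alike: KO1 had the second highest Grin2a to Grin2b ratio and the lowest Slc12a5 to Slc12a2 ratio. Slc12a2 had a log2 fold change of -0.24 (SE 0.06, edgeR adjusted p = 0.248) and Slc12a5 one of -0.07 (SE 0.13, edgeR adjusted p = 0.870).

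**Figure D4:**
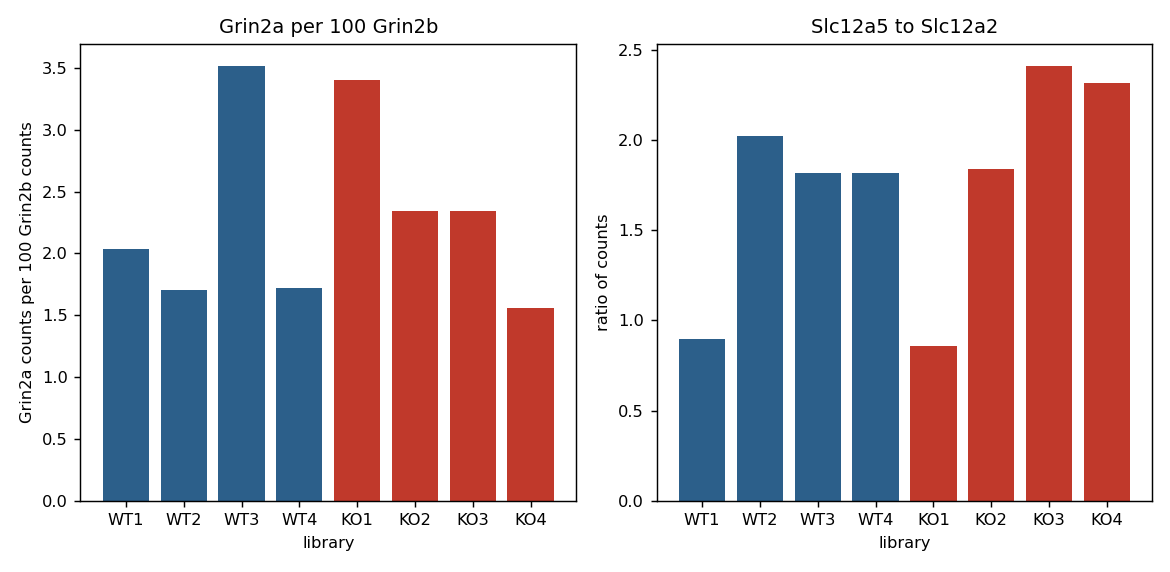
Grin2a counts per 100 Grin2b counts (left) and the ratio of Slc12a5 to Slc12a2 counts (right), 1 bar per library from 0 (blue, WT; red, KO). The left ratio is highest in WT3 (3.52) and KO1 (3.40), whereas the right ratio is lowest in KO1 (0.860) and WT1 (0.897).

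For every gene but Grin2b, the difference between KO1 and WT1 on one side and the remaining libraries on the other was larger in size than the genotype fold change. The mean of KO1 and WT1 differed from the mean of the other 6 libraries by -1.42 for Grik5, -0.72 for Grin1, -0.71 for Grin2d and -0.59 for Grik4 on the log2 CPM scale, and for these 4 genes both libraries lay below all others. It differed by 0.58 for Grin2a, 0.50 for Grik1, 0.38 for Grik2, 0.26 for Grin2b and 0.09 for Grin3a, and by -0.19 for Grik3. Slc12a5 followed the first group at -0.65 and Slc12a2 the second at 0.55. KO1 and WT1 are of opposite genotype, so this contrast does not follow Nuak1.

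The differences moved with base composition. Transcript GC content was 59.4% for Grin1, 65.0% for Grin2d and 62.3% for Grik5, and 46.4% for Grik1 and 43.8% for Grik2. Across the 13636 tested genes with a GC value, the median difference of KO1 and WT1 from the other libraries went from 0.36 in the lowest of 5 equal bins of GC content to -0.93 in the highest. Pearson's r of GC content with this difference was -0.75 across those genes and -0.83 across the 10 receptor genes, given as a description, since all genes share the same libraries. WT3 leaned the other way against the remaining WT libraries, with medians from -0.17 to 0.52 over the same bins and a weaker Pearson's r of 0.45 across genes. In that contrast Grin2d differed by 1.29, Grik5 by 0.72 and Grin1 by 0.57, while Grik2 differed by -1.19, Grik3 by -0.75 and Grin3a by -0.72. Not every gene followed its bin: Grik3, at 54.2% GC, ran against a bin median of 0.20 and Grik1, at 0.11, against one of -0.11, and, around a bin median of 0.01, Grin3a and Grin2b (-0.46) lay far below and Grin2a (0.50) and Grik4 (0.51) far above. The part of GC content in these values was not tested beyond 1 correction. With each library's trend against GC removed, Grin2b had a log2 fold change of -0.42 (edgeR unadjusted p = 0.0318, adjusted p = 0.995). That fit had no surrogate variable, so it is not to be set beside the main fit. With neither the correction nor a surrogate variable the log2 fold change was -0.39 (edgeR unadjusted p = 0.0247).

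**Figure D5:**
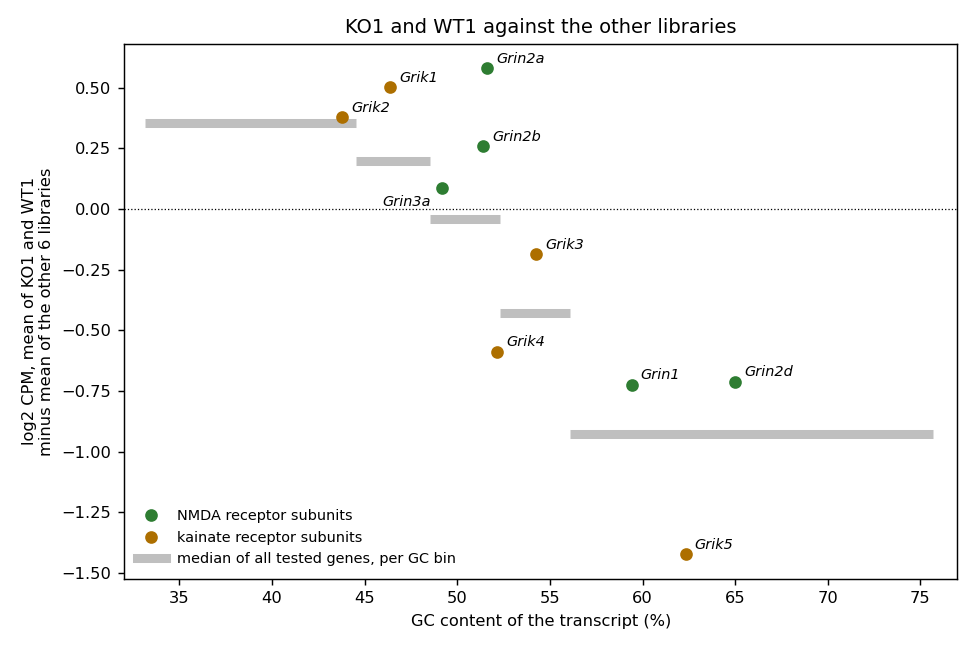
Difference in log2 CPM between the mean of KO1 and WT1 and the mean of the other 6 libraries for each subunit gene (green, NMDA; brown, kainate) against the GC content of its transcript in percent. Grey bars are the medians of all tested genes with a GC value in each of 5 bins of GC content. Grik5, Grin1 and Grin2d, at 59.4 to 65.0% GC, lie at -0.71 or lower, and Grik1 and Grik2, at 46.4 and 43.8% GC, at 0.50 and 0.38.

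Some of the genes ran together across the 8 libraries. Pearson's r of log2 CPM was 0.95 between Grin1 and Grik5, 0.93 between Grin1 and Grik4, 0.91 between Grik4 and Grik5 and 0.85 between Grin1 and Grin2d. Grin2d and Grik2 ran against each other (r = -0.89), Grin3a and Grik2 ran together (r = 0.85), and Grin2a and Grin2b were only loosely related (r = 0.30). The tested genes most like Grin2b were Atrn (r = 0.99), Cdh11 (r = 0.98) and Mfsd6 (r = 0.98), and those most like Grin2a were Adcyap1 (r = 0.97), Arap2 (r = 0.97) and Brinp3 (r = 0.97). These are descriptions over the same 8 libraries, which differ in depth, lane and their trend with GC content, and the highest of 16272 values are high by selection.

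Proteins that hold NMDA receptors at the synapse or act on them, such as the PSD-95 family scaffolds, CaMKII subunits, SynGAP and the kinases Fyn and Src, showed no call. Of 21 such genes, 0 passed the study's rule in either direction or the adjusted edgeR test, 0 were under an unadjusted p of 0.05, 12 log2 fold changes were below 0 and the median was -0.02. Among genes that make, carry or degrade the co-agonists glycine and D-serine, 9 of 11 were tested. All 9 were below 0, from -0.35 to -0.01 with a median of -0.23, and 1 met the study's rule, Slc1a4. Over all tested genes 46.2% were below 0 and 3.53% met that rule with KO lower. Slc1a4, a neutral amino acid transporter that carries serine, had a log2 fold change of -0.25 (SE 0.11, edgeR adjusted p = 0.469) and lay at the edge of that rule.

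The auxiliary subunits of kainate receptors, Neto1 and Neto2, slow channel closing. Neto2 was at 455, 415, 398 and 425 CPM in KO1 to KO4 and at 564, 553, 312 and 504 CPM in WT1 to WT4. It had the layout of Grik2, with all KO libraries below WT1, WT2 and WT4 and WT3 lowest of all, and a log2 fold change of -0.23 (SE 0.15, edgeR adjusted p = 0.612), which was -0.39 without WT3 (SE 0.07, edgeR adjusted p = 0.0511). Neto1 ranged from 33.1 to 41.7 CPM in the KO libraries and from 37.9 to 53.4 CPM in the WT libraries (log2 fold change -0.15, SE 0.08; edgeR adjusted p = 0.545). Of the 8 kainate receptor partners listed, 6 were tested, and 0 met the study's rule. Of these 6, 5 were below 0 with a median of -0.09, beside 46.2% of all tested genes below 0.

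Other glutamate receptors stood beside the NMDA and kainate genes as a comparison. Of 13 AMPA, delta and metabotropic receptor genes, 12 were below 0 with a median of -0.23, beside 46.2% of all tested genes below 0. By the study's rule 5 were lower in KO and 0 higher, beside 3.53% and 2.22% of all tested genes. None passed the adjusted edgeR test, beside 0.0492%, and 6 were under an unadjusted p of 0.05, beside 10.6%. All 5 that met the rule were metabotropic. The AMPA receptor gene Gria2, named after its values were seen, missed only the fold change cut, at -0.23 (SE 0.07, edgeR unadjusted p = 0.0107). Grm3, a Gi-coupled receptor, had a log2 fold change of -0.63 (SE 0.10, edgeR adjusted p = 0.124). Grm7 and Grm8, presynaptic Gi-coupled receptors, had log2 fold changes of -0.28 each, Grm5, a Gq-coupled receptor of the postsynapse, one of -0.28, and Grm2 one of -0.29.

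REST and PRC2 factors, known as repressors whose balance is tied to the GluN2B to GluN2A switch, had a median log2 fold change of 0.06, 0 of 10 below 0 and 0 past the study's rule. Late markers of neuronal maturity had a median of 0.01 with 4 of 9 below 0, and early markers a median of 0.05 with 3 of 7 below 0. Over all tested genes 46.2% were below 0. Camk2a, Rbfox3 and Snap25 each belong to more than one of the lists compared here. Markers of glutamatergic cortical neurons, the cells expected to hold most of these receptors, summed to 799.5 to 941.5 CPM (KO) and 790.5 to 974.8 CPM (WT), and progenitor markers to 287 to 387 CPM (KO) and 182 to 317 CPM (WT), with WT3 the lowest. Of 6 glutamatergic markers 1 met the study's rule with KO lower, beside 3.53% of all tested genes. Of 7 progenitor and 7 oligodendrocyte lineage markers 1 each met it with KO higher, beside 2.22%. Their part in the values of Grin2b and Grik2 was not tested.

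Some counts carry a limit of annotation. Grin1 overlaps the antisense transcript Grin1os over 7403 bases, Grin2b overlaps Gm14329 over 11433 bases, and Grin3a holds Ppp3r2 within its span. Whether counting used strand is not given in the sources used here, so reads in these stretches may have been assigned to neither gene or to the other one. Runs of 50 bases shared with another gene made up 0.415% of Grik3, 0.171% of Grik4 and 0% of the other 8 transcripts.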

How the data were processed

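RNA from 8 cultures (4 KO, 4 WT) was sequenced, and the authors deposited raw read counts per gene. They trimmed adapters with Cutadapt 1.10, discarded ribosomal reads, aligned with STAR 2.5.3a to mm10 and counted with HTSeq 0.6.1p1 in union mode. The labels also name bcl2fastq 2.17.1.14 and Bowtie2 2.2.8. Strand use in counting is not given in the sources used here.

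Genotypes came from the labels. Genes were tested with the edgeR 4.0.16 quasi-likelihood test (R 4.3.3, TMM, robust fit, filterByExpr by genotype), with genotype and 1 surrogate variable from sva 3.50.0 as terms, and p-values were Benjamini-Hochberg adjusted over all 16272 tested genes at 0.05. The surrogate variable absorbs variation shared by many genes, so fold changes can differ from ratios of mean CPM. CPM are deposited counts per 1000000 counts of the library's total. DESeq2 1.42.0, limma 3.58.1, other filters, size factors and covariates, each lane alone and each library left out were alternatives; lane interaction, GC correction and coding length were added after the data were seen. Ratios were compared by exact permutation over libraries. The fit was tested on simulated data.

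Symbols were matched for 23260 of 32726 identifiers. Positions are from the RefSeq annotation of GRCm38. Transcript lengths, GC content and sequences are from GENCODE M1, built on NCBIM37, and no coordinate was moved between builds. The genes and lists were chosen with earlier results of these data known. All 10 receptor genes were named; from each other list, genes past the adjusted or the study's threshold, at most 5; Grin2c, Grin3b, Neto1, Neto2, Slc12a5, Slc12a2 and Nuak1 whatever their values; and the 3 genes most correlated with Grin2b and with Grin2a. Some items that these rules select are not reported here. The main fit and the CPM values used all 8 libraries, and values from fits that left libraries out are named as such. Chi-square over degrees of freedom was at least 18.8 for every pair of libraries, so none was a repeat deposit.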

Additional observations from a re-analysis of the deposited data

Results flagged for a closer look

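Within each genotype, 24 sets of 4 library values were examined for a single value far from the other 3 by Dixon's test at the 95% level, and about 1.2 are expected to pass by chance. In 2 of them one library stood apart. Grik2 in WT3 was at 114 CPM (Dixon's ratio 0.882), while the other 3 WT libraries lay between 247 and 265 CPM. Grik4 in KO1 was at 11.8 CPM (Dixon's ratio 0.920), while the other 3 KO libraries lay between 14.7 and 14.9 CPM.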

How the results depend on the processing

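Over the 23 alternatives to the fit of all genes, Grin2b and Grik4 stayed below 0 in all 23. Signs turned for Grik1 with no surrogate variable (0.0286), 2 surrogate variables (0.0063), lane as a term (0.0305), lane B alone (0.0479) and GC correction (0.0202), for Grin2d with 2 surrogate variables (0.0055) and in lane B (0.25), for Grik5 with strain label (0.0482), for Grin3a (0.0568) and Grik2 (0.13) in lane A, for Grik3 in lane A (0.14) and without KO1 and WT1 (0.0029), and for Grin1 (0.0093) and Grin2a (0.0586) in lane B. With 1 library left out, the log2 fold change ran from -0.20 to 0.11 for Grik1, -0.29 to 0.12 for Grin2d, -0.23 to 0.0661 for Grin3a and -0.29 to 0.0398 for Grik3. The Grin2a to Grin2b log2 difference was -0.22 in lane A, -0.0883 without KO1 and WT1, and -0.065 to 0.36 with 1 library left out, where leaving out KO1 turned its sign. That of Slc12a5 to Slc12a2 ran from -0.13 to 0.48, turning without KO3 (-0.02), KO4 (-0.0016) or WT1 (-0.13).

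Genes past the adjusted edgeR threshold numbered 8. They were 4 with no surrogate variable, 4 with 2 surrogate variables, 4 with lane as a term, 1 with strain label, 3 with a replicate block, 45 with no filter, 2 with 10 counts required in every library, 188 with DESeq2, 0 in lane A (96 under an unadjusted p of 0.05), 99 in lane B, 3 without KO1 and WT1 and 2 with GC correction. With 1 library left out they ran from 3 to 91, the highest without WT3. The study's rule gave 936 genes. It gave 396 with no surrogate variable, 452 with lane as a term, 310 with strain label, 1488 with no filter, 96 in lane A, 1612 in lane B, 555 without KO1 and WT1, 425 with GC correction, and 606 (without WT1) to 1403 (without WT4) with 1 library left out. Of the 10 receptor genes, 1 met that rule: 0 did in lane A, 3 in lane B, and 1 to 3 with 1 library left out. Each lane alone holds 2 libraries per genotype, and the causes of these shifts were not tested. No surrogate variable was used with GC correction, with lane, strain label or replicate block as a term, in single lanes, or without KO1 and WT1.

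KO and WT libraries share replicate numbers, but the labels give no pairing. Deviations of same-numbered libraries correlated at 0.80, 0.01, 0.25 and 0.00, so the numbers were not taken as pairs. With the replicate block Grin2b had a log2 fold change of -0.37 (edgeR adjusted p = 0.650) and 757 genes met the study's rule.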
